A study of Mus musculus with 6 samples.

Results

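The 10 genes described here are a panel of adipocyte transcripts read in heart tissue, namely Adipoq, Lep, Plin1, Cfd, Fabp4, Retn, Cidec, Lipe, Pparg and Ucp1. The rule matches the gene symbol alone and uses no measured value, the panel itself having been drawn up with earlier results of these data known, and all 10 were among the 54532 genes listed by the study. The hearts came from C57BL/6 mice (C57BL/6J in the study's methods) with a ligated left anterior descending (LAD) coronary artery, the model of myocardial infarction (MI), and peri-infarcted and infarcted tissue was collected at day 7 post-MI. Bulk RNA sequencing gave 1 library for each of 3 wild-type (WT) mice and each of 3 knockout (KO) mice lacking Crlf2, the gene of the receptor for thymic stromal lymphopoietin (TSLPR KO, Crlf2-/-). Every mouse in both groups had undergone the ligation, and no sham-operated heart was among the libraries. Per the study's methods the WT mice were males bought from a supplier and the KO mice were made by a different company on the same background, so genotype and origin of the mice cannot be told apart.

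White adipocytes store triglyceride in a single large droplet and secrete hormones called adipokines, while brown adipocytes burn lipid for heat. In the mouse heart, fat lies around the vessels and the atrioventricular groove and is scarce over the ventricular wall. The panel holds secreted products (Adipoq, Lep, Retn and Cfd), proteins of the lipid droplet and its breakdown (Plin1, Cidec and Lipe), the lipid carrier Fabp4, the master regulator of fat cell formation Pparg, and the brown-fat uncoupling protein Ucp1. Of these, Fabp4 is also a product of capillary endothelium and macrophages, and Pparg and Lipe are active in several other cell types.

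Levels are given as FPKM (fragments per kilobase of exon, relative to the mapped fragments of the library) after a small scaling between libraries, in the order WT 1, WT 2, WT 3 and KO 1, KO 2, KO 3. Each library held 18508646 to 19682428 fragments on genes, and intervals cover counting error only. The tissue label says heart, whereas the extraction text in the labels speaks of retinas. The summed level of 10 cardiomyocyte genes ran from 725 to 2080 FPKM, and that of 7 retina genes from 0.11 to 0.196 FPKM. Crlf2 itself was read at 26.8, 24.9 and 21.6 FPKM in WT hearts and at 13.2, 18.6 and 19.9 FPKM in KO hearts, a log2 fold change of -0.52 (adjusted p = 0.521, limma) with all KO hearts below all WT hearts, and which bases the deletion removes is not given in the sources used here. A pair of libraries held transcripts of a neighbouring tissue. KO 2 held 306 FPKM summed over 7 fast skeletal muscle genes, against 1.93 to 3.4 FPKM in the other libraries, and WT 3 held 10.8 FPKM summed over 6 lung genes, against 0.349 to 2.01 FPKM elsewhere.

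The promoters of the 4 genes that varied most between hearts, and of Lep, are shown because these transcripts were high and low in the same hearts. The windows are the 250 bases before the transcription start in RefSeq (GRCm38.p6), read 5′ to 3′ on the gene's strand. Capitals mark CCAAT or TTGCNNAA, the latter a core bound by C/EBP factors of fat cells, found on either strand.
Adipoq: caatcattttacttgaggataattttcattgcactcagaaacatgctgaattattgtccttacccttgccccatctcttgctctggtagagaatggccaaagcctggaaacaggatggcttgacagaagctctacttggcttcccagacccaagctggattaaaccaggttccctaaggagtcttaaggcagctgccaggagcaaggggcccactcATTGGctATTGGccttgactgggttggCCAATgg
Cfd: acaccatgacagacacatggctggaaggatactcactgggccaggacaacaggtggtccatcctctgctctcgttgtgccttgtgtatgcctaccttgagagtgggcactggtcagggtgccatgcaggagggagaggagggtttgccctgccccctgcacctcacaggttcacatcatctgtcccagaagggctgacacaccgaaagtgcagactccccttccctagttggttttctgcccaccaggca
Cidec: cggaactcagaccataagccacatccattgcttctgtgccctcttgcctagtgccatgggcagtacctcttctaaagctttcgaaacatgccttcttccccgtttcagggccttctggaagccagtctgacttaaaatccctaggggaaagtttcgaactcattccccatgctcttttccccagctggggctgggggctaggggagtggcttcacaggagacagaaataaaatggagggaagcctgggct
Plin1: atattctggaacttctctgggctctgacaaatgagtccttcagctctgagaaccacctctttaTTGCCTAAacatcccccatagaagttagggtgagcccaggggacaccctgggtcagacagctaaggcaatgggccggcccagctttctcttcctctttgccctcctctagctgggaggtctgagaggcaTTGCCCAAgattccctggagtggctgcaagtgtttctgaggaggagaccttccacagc
Lep: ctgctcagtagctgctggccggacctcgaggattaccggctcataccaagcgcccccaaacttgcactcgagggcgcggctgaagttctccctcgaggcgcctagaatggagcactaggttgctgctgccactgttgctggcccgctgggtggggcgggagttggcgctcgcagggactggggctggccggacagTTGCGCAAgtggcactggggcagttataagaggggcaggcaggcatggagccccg
The windows lie at chr16:23146286-23146535 (plus strand) for Adipoq, chr10:79890603-79890852 (plus) for Cfd, chr6:113435761-113436010 (minus) for the first start of Cidec, chr7:79732777-79733026 (minus) for Plin1 and chr6:29059971-29060220 (plus) for Lep. Windows were found for 9 of the 10 members, 13 windows in all since some genes have several starts, and Fabp4 had no entry. TTGCNNAA was present in 4 of these 13 windows, belonging to Lep, Plin1, Cidec and Pparg, and in 9.56% of all 32851 mouse windows. For Cidec the match lies in the window of its other start, which is not shown, and the window printed above has none. CCAAT was present in 3 of 13, belonging to Adipoq and Pparg, and in 33.8% of all windows. A direct repeat of AGGTCA with any 1 base between the copies, the consensus for PPAR/RXR, was in 0 of the 13 windows and in 0.0335% of all. These matches describe the letters in the window only.

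Among the secreted products, adiponectin (Adipoq, chr16:23146536-23158028, plus strand), the adipocyte hormone that acts on insulin sensitivity, was read at 1.23, 6.96 and 1.12 FPKM in WT hearts and at 0.131, 0.34 and 2.67 FPKM in KO hearts. WT 2 and KO 3 stood above the other hearts of their group, and KO 3 lay above WT 1 and WT 3, so that the groups overlapped. The fragments behind these levels were 39, 210 and 34 in WT and 4, 11 and 83 in KO. WT 2 exceeded the next WT heart by 5.63-fold (95% interval 3.99 to 8.14, exact for counting), and KO 3 exceeded the next KO heart by 7.86-fold (4.18 to 16.4). The highest heart held 53.0 times the level of the lowest.

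Adipsin (Cfd, chr10:79890853-79892655, plus strand), the serine protease complement factor D that fat secretes in large amounts, showed wide ratios of the highest heart to the next of its group. Its level was 5.12, 55.4 and 8.57 FPKM in WT and 1.03, 0.926 and 25.5 FPKM in KO. The same 2 hearts were high, with WT 2 at 6.47 times the next WT heart (5.51 to 7.64) and KO 3 at 24.7 times the next KO heart (16.0 to 40.2). With 1117 fragments in WT 2, 528 in KO 3 and 20 or 21 in the lowest hearts, counting error was small beside these ratios.

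The remaining adipokines were near the limit of detection. Leptin (Lep, chr6:29060220-29073877, plus strand), the satiety hormone, was counted 8, 18 and 3 times in WT and 0, 0 and 10 times in KO, which is 0.104, 0.245 and 0.0408 FPKM and then 0.133 FPKM in KO 3. A count of 0 allows up to 3 fragments, which is 0.0405 FPKM in KO 1 and 0.0382 FPKM in KO 2. WT 2 and KO 3 were again the highest of their group, though for Lep the ratio of WT 2 to WT 1 was 2.35 with an interval of 0.974 to 6.26. Resistin (Retn, chr8:3655770-3660110, plus strand), an adipokine of mouse fat, was counted 6, 24 and 7 times in WT and 3, 0 and 22 times in KO. Its level was 0.166, 0.695 and 0.202 FPKM in WT and 0.0861, 0 and 0.62 FPKM in KO, with WT 2 at 3.43 times the next WT heart (1.44 to 9.44) and KO 3 at 7.2 times the next KO heart (2.16 to 37.6). Both genes were too low in too many hearts to enter the test between groups.

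The droplet proteins followed the same hearts. Cidec (chr6:113424634-113435760, minus strand), which enlarges lipid droplets by fusing them, was read at 1.06, 5.15 and 1.11 FPKM in WT and 0.366, 0.046 and 2.8 FPKM in KO. Perilipin-1 (Plin1, chr7:79720218-79732903, minus strand), which coats the droplet and gates lipolysis, was read at 0.329, 1.51 and 0.255 FPKM in WT and 0.078, 0.0184 and 0.833 FPKM in KO. In both genes WT 2 was highest, KO 3 second, and KO 1 and KO 2 lay below every WT heart. WT 2 exceeded the next WT heart by 4.65-fold for Cidec (3.36 to 6.57) and 4.57-fold for Plin1 (3.15 to 6.8). KO 3 exceeded the next KO heart by 7.66-fold for Cidec (4.46 to 14.1) and 10.7-fold for Plin1 (5.19 to 25.5). The lowest heart, KO 2, rested on 2 fragments for each gene.

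Hormone-sensitive lipase (Lipe, chr7:25379527-25398710, minus strand) behaved differently from these droplet proteins. Its level was 2.36, 2.7 and 2.24 FPKM in WT and 1.49, 1.87 and 2.37 FPKM in KO, a 1.82-fold range over the 6 hearts. WT 2 and KO 3 were again highest within their groups, but by 1.14-fold (0.98 to 1.34) and 1.26-fold (1.07 to 1.5). Lipe overlaps the antisense gene 4732471J01Rik and the strand setting of the counting is not given in the sources used here, so a share of its fragments may belong to that gene.

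Fabp4 (chr3:10204088-10208576, minus strand), the fatty acid carrier, was measured at 33.6, 37.0 and 27.2 FPKM in WT and 15.6, 21.3 and 24.3 FPKM in KO. All 3 KO hearts lay below all 3 WT hearts, and Fabp4 was the only one of the 10 members whose groups did not overlap with KO lower, against 6.37% of all genes tested. The gene length used for its FPKM, 4489 bases, is that of the whole gene, 5.01 times the 896 bases of its coding transcript, so its level per length of messenger is understated. Pparg (chr6:115360951-115490399, plus strand) was measured at 5.69, 4.0 and 3.88 FPKM in WT and 4.37, 3.93 and 3.95 FPKM in KO. The highest Pparg hearts were WT 1 and KO 1, not those with high Adipoq, and the whole range was 1.47-fold. Pparg overlaps the antisense gene Gm44079, with the same limit as for Lipe. Ucp1 (chr8:83290352-83298452, plus strand) gave 2 fragments in WT 3 and 0 in each of the other 5 libraries, where the same limit of 3 fragments is 0.0783 to 0.0839 FPKM. The 2 fragments of WT 3 lie below that limit too. Brown-fat Ucp1 was therefore not detectable at this depth in any heart, including the 2 with the highest Adipoq.

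**Figure D1:**
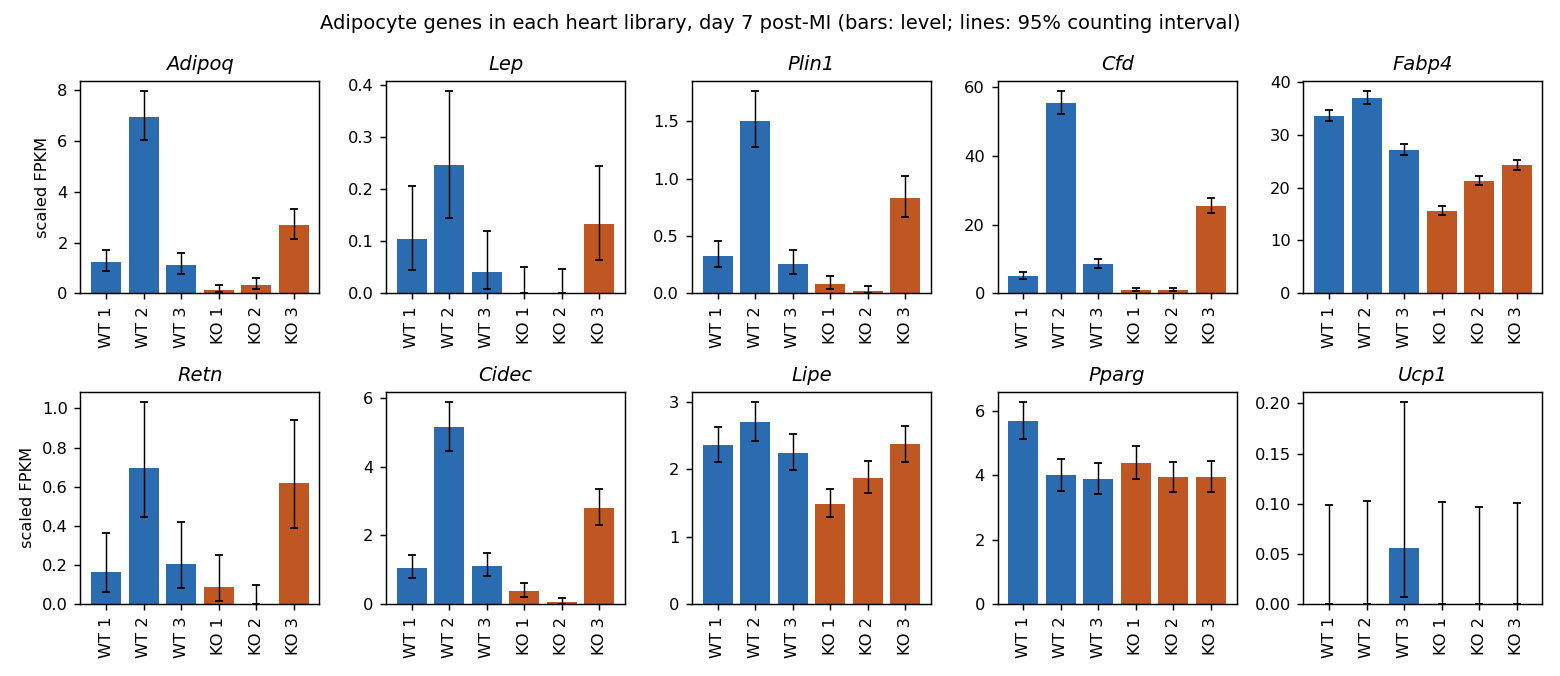
Level of each of the 10 members (scaled FPKM, vertical axis, its own scale in each panel) in the 3 WT (blue) and 3 KO (orange) libraries. Bars are single hearts and lines are exact 95% counting intervals. Adipoq, Plin1, Cfd, Retn, Cidec and Lep peak in WT 2 and are second in KO 3, Fabp4 separates the groups, Pparg is level and Ucp1 is near 0.

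Across the panel, 8 of 10 members had their highest level of all 6 hearts in WT 2, and the same 8 had KO 3 as the highest KO heart, the exceptions being Pparg and Ucp1. In 7 members KO 3 was above WT 1 and WT 3, and in 8 members KO 1 and KO 2 were both below WT 1 and WT 3. This order of hearts was noticed after the values were seen and is given as a description. No share over all genes was worked out for these counts, so they do not show whether the panel is unusual in them. Of the 7 members tested, 6 had WT 2 highest of WT and KO 3 highest of KO, an order held by 11.0% of all 15520 genes tested. With a margin of at least 2-fold in both groups, 4 of the 7 did (Cfd, Plin1, Adipoq and Cidec), against 11 genes or 0.0709% of all tested.

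The other 7 genes with that margin were Cyp2e1, Thrsp, Gm2260, Retnlg, Glb1l2, Serpina3c and Ccdc3. Cyp2e1, a cytochrome P450 of liver and fat, was read at 0.486, 8.27 and 1.69 FPKM in WT and 0.315, 0.119 and 3.3 FPKM in KO. Thrsp, a lipogenic gene of liver and fat, was 2.84-fold higher in WT 2 than in the next WT heart and 8.34-fold higher in KO 3 than in the next KO heart. Retnlg, the resistin relative of neutrophils, showed 2.04-fold and 2.95-fold. In Retnlg, unlike Adipoq and Cfd, KO 3 at 1.58 FPKM was not above WT 1 at 1.62 FPKM.

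**Figure D2:**
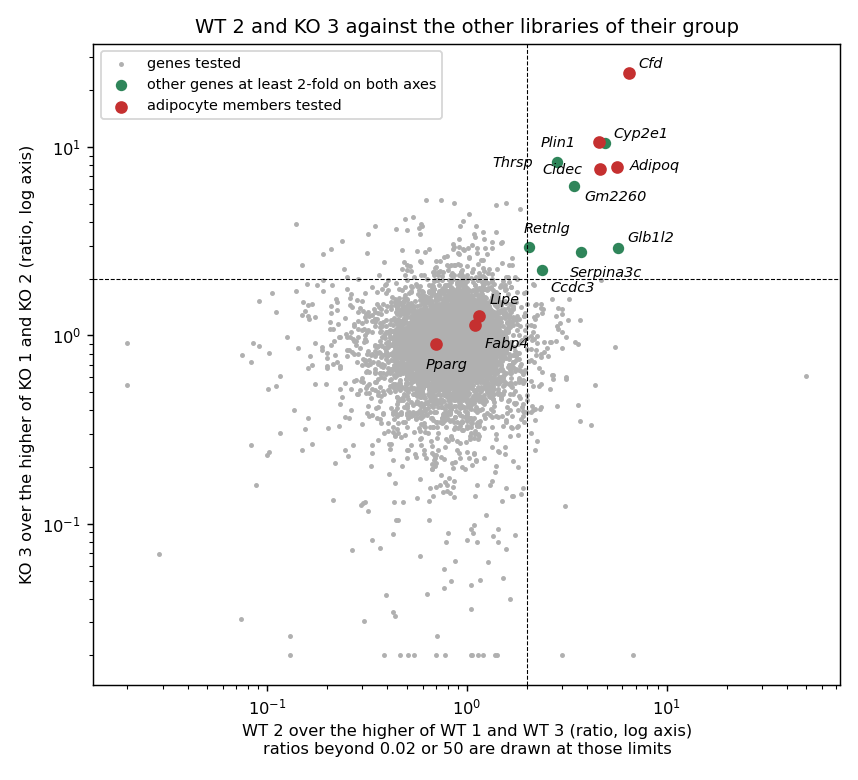
Each point is a gene tested (15520). The horizontal axis is WT 2 divided by the higher of WT 1 and WT 3, the vertical axis KO 3 divided by the higher of KO 1 and KO 2, both log, with dashed lines at 2-fold. Cfd, Plin1, Adipoq and Cidec (red) are among the 11 genes past both lines, while Lipe, Fabp4 and Pparg lie in the main cloud.

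The spread within groups separated the panel in the same way. On the log2 scale the within-group SD was 2.26 for Cfd, 1.77 for Cidec, 1.66 for Adipoq and 1.4 for Plin1, which ranked 6, 16, 21 and 39 among the 15520 genes from the most variable down. For Fabp4, Lipe and Pparg it was 0.28, 0.24 and 0.22, close to the median of 0.2 over all genes. The summed level of Adipoq, Plin1 and Cidec was 2.62, 13.6 and 2.49 FPKM in WT and 0.575, 0.404 and 6.31 FPKM in KO, a 33.7-fold range. In bulk tissue fewer fat cells and less of these transcripts per fat cell cannot be told apart.

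Relative to Adipoq in the same library, Cfd stayed within a 3.5-fold range, at 4.15, 7.97 and 7.62 times Adipoq in WT and 7.86, 2.72 and 9.53 times in KO. In the WT hearts and KO 3, with at least 26 fragments of each gene, Cidec and Plin1 kept a similar proportion too. Cidec was 0.859, 0.741 and 0.985 times Adipoq in WT and 1.05 times in KO 3, and Plin1 was 0.267, 0.216 and 0.227 times in WT and 0.311 times in KO 3. In KO 1 and KO 2, with few fragments of any of the 3, Cidec was 2.79 and 0.135 times Adipoq. Fabp4 was 5.32 times Adipoq in WT 2 and 119 times in KO 1, and Pparg went from 0.575 to 33.3 times between the same 2 hearts. The levels of Fabp4 and Pparg therefore did not scale with Adipoq from heart to heart.

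**Figure D3:**
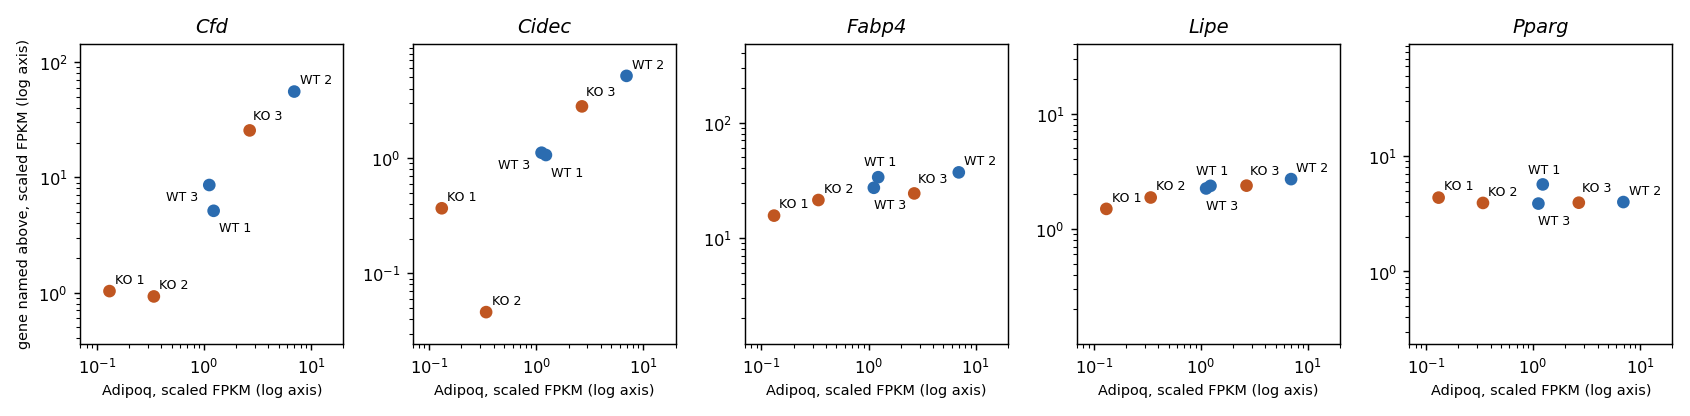
Cfd, Cidec, Fabp4, Lipe and Pparg (scaled FPKM, vertical log axes spanning the same number of decades) against Adipoq (scaled FPKM, horizontal log axis), 1 point per heart, WT blue and KO orange. Cfd and Cidec climb with Adipoq, Fabp4 and Lipe climb little and Pparg is flat.

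The genes most like the summed Adipoq, Plin1 and Cidec across the 6 hearts, ranked by Pearson r of log2 levels, were Megf6 (r = 0.997), Ptcd1 (0.993), Acad12, Ccdc157 and Ushbp1 (0.992 each), Gm33699 (0.991), and Rai2, Cfd, Kctd10 and Fsd1 (0.99 each). Cfd was the only other member in these 10, and the only one with a wide range, 59.8-fold against 1.25-fold to 2.86-fold for the remaining 9. With 6 hearts and 15520 genes a high r is a description only, and the points share their libraries. Lipe had r = 0.883 and rank 196, Fabp4 0.773 and rank 695, and Pparg -0.057 and rank 8599.

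The comparison that the design implies is KO against WT at day 7 post-MI. Of the 10 members, 7 had enough fragments to be tested, a filter that genes high in only a few hearts can pass. All 7 had a lower fitted level in KO, and 0 passed the test (limma, Benjamini-Hochberg adjusted p of at most 0.05 over all genes and a log2 change of at least 0.5), whereas 2 of 15520 genes, or 0.0129%, did. At an unadjusted p under 0.05, 1 of the 7 was lower in KO, against 3.36% of all genes lower and 1021 genes in either direction. The median log2 fold change of the 7 was -1.21, against -0.004 over all genes, and their median within-group SD was 1.4.

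The member below an unadjusted 0.05 was Fabp4, with a mean of 32.6 ± 4.99 FPKM in WT and 20.4 ± 4.38 FPKM in KO (SD, n = 3 each). Its log2 fold change was -0.69 (SE 0.18, 95% interval -1.11 to -0.27), with an adjusted p of 0.364 in limma across all genes tested. The Fabp4 difference was thus larger than the spread between hearts, but did not pass once all genes were counted. An exact permutation test of 3 against 3 cannot go below p = 0.1.

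For the 4 variable members the groups overlapped and the interval of the difference included 0. Adipoq averaged 3.1 ± 3.34 FPKM in WT and 1.05 ± 1.41 FPKM in KO (SD, n = 3 each), a log2 fold change of -1.78 (SE 1.04, interval -4.26 to 0.70, adjusted p = 0.876, limma). Cfd averaged 23.0 ± 28.1 and 9.15 ± 14.1 FPKM, a log2 fold change of -2.13 (SE 1.5, interval -5.8 to 1.53). For Cidec the means were 2.44 ± 2.35 and 1.07 ± 1.51 FPKM and the log2 fold change -1.74 (interval -4.39 to 0.91), and for Plin1 they were 0.697 ± 0.701 and 0.31 ± 0.454 FPKM with -1.21 (interval -3.13 to 0.70). Every one of these intervals held both no change and a several-fold loss.

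Which heart was included set the size of these differences. Without WT 2 the log2 fold changes were -0.96 for Adipoq, -1.12 for Cfd, -1.02 for Cidec and -0.53 for Plin1. Without KO 3 they were -2.82 for Adipoq, -3.66 for Cfd, -2.9 for Cidec and -2.11 for Plin1. In that setting 6 of the 7 members had an unadjusted p under 0.05 (limma), against 1068 of 15299 genes, with 0 members called (lowest adjusted p 0.383, Fabp4). KO 3 was the highest KO heart in those 6. Leaving it out lowers their KO level by construction, so these p-values are no test of the members. Without KO 1 Adipoq was at -1.03 and Cfd at -1.41, and without KO 2 Cfd was at -1.34, Cidec at -0.74 and Plin1 at -0.62. Lipe, at 2.43 ± 0.237 FPKM in WT and 1.91 ± 0.441 FPKM in KO (SD, n = 3 each), had a log2 fold change of -0.35 (interval -0.78 to 0.07), which was -0.19 without KO 1 and -0.51 without KO 3. Pparg, at 4.52 ± 1.01 and 4.08 ± 0.25 FPKM, had -0.12 (interval -0.49 to 0.25), and without WT 1 its sign turned, to 0.05.

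**Figure D4:**
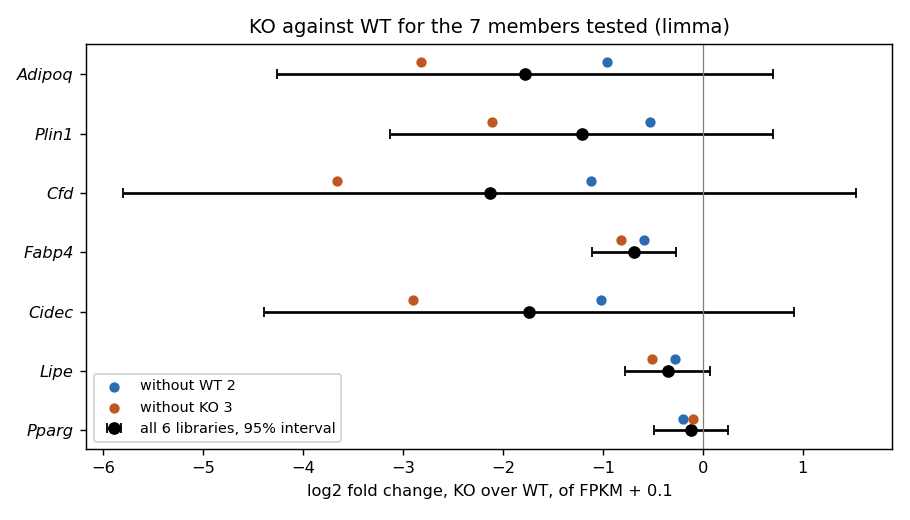
Log2 fold change of KO over WT (horizontal axis) for the 7 members tested. Black points and lines are the limma estimate from all 6 libraries with its 95% interval, and coloured points are the estimates without WT 2 or without KO 3. Only the interval of Fabp4 lies wholly below 0, and the intervals of Cfd, Cidec, Adipoq and Plin1 are the widest.

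Further genes of white adipocytes were read beside the panel. Of 25 listed genes 22 were tested, 19 lower and 3 higher in KO, with a median log2 fold change of -0.31 and 0 called. An unadjusted p under 0.05 was reached by 5, all lower (Lpl, Sncg, Aqp7, Angptl4 and Cd36), against 3.36% of all genes tested. Lipoprotein lipase (Lpl), which cardiomyocytes also make, was 43.0, 40.8 and 49.3 FPKM in WT and 29.7, 28.7 and 35.6 FPKM in KO, with a log2 fold change of -0.50. Aqp7, the glycerol channel, was 0.433, 0.372 and 0.533 FPKM in WT and 0.128, 0.136 and 0.315 FPKM in KO. Neither Lpl nor Aqp7 had WT 2 on top, unlike Adipoq. Adig, a small protein of fat cells, gave 6 fragments in WT 2 (0.339 FPKM), 2 in KO 3 (0.11 FPKM) and 0 in every other library. A count of 0 allows up to 3 fragments, so for Adig KO 3 cannot be told from the hearts at 0. Pck1, the enzyme of glyceroneogenesis, was highest in WT 2 and KO 3, at 0.4 and 0.506 FPKM. Car3, abundant in fat and also in skeletal muscle, was 4.5, 21.4 and 5.12 FPKM in WT and 0.98, 31.3 and 10.5 FPKM in KO, its highest value lying in the library with skeletal muscle transcripts. Of the 22 tested, 10 had WT 2 highest of WT and KO 3 highest of KO, against 11.0% of all genes tested. This order was not particular to adipocyte genes. It was held by 6 of 10 cardiomyocyte genes, 7 of 13 genes of lipid droplets and lipolysis and 6 of 14 sister genes of the members. Among capillary endothelial genes it was held by 2 of 14 and among macrophage genes by 0 of 12.

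Among 14 brown adipocyte genes 12 were tested and 9 were lower in KO, and 0 were called. Of those lower, 3 were below 0.05 before adjustment, against 3.36% of all genes. Those 3 were Cidea, a relative of Cidec, and Cox8b and Cox7a1, subunits of cytochrome oxidase that heart muscle also uses. Cidea was 2.48, 4.87 and 3.14 FPKM in WT and 1.09, 1.43 and 2.18 FPKM in KO, a log2 fold change of -1.11. The brown-fat genes Elovl3 and Otop1, like Ucp1, were at 0 in 5 of 6 hearts each.

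Sister genes of the members belong to the same protein families and are mostly made by other cells. Of 17 sister genes 14 were tested and 13 were lower in KO, at a median of -0.54 and with 0 called. An unadjusted p under 0.05 was reached by 3 (C1qtnf9, Cidea and Fabp3), against 3.36% of all genes lower. Fabp3, the heart-muscle relative of Fabp4, was 105, 170 and 169 FPKM in WT and 40.0, 50.8 and 119 FPKM in KO. Plin5, the perilipin of oxidative muscle, was 1.01, 1.47 and 1.2 FPKM in WT and 0.0868, 0.45 and 1.47 FPKM in KO. Plin2, the perilipin of foam cells and most other cells, was highest in WT 1 of all hearts, at 122 FPKM, where Pparg was highest too. Over 13 tested genes of lipid droplets and lipolysis 12 were lower in KO, at a median of -0.27, with 0 at an unadjusted p under 0.05 and 0 called in limma.

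Receptors and partners of the adipokines were read as well. Adipor1, a receptor of adiponectin, was 36.2, 37.4 and 36.3 FPKM in WT and 31.8, 38.3 and 35.5 FPKM in KO, and the leptin receptor Lepr was 0.701 to 0.887 FPKM in all 6 hearts. Cfb, the substrate that Cfd cleaves in the alternative complement pathway, was 0.325, 0.421 and 0.21 FPKM in WT and 0.529, 0.635 and 0.646 FPKM in KO (log2 fold change 0.78, adjusted p = 0.518, limma). Of these 8 genes 6 were lower in KO and 0 were called.

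PPAR proteins, Pparg among them, switch on genes of fatty acid use that several tissues share. Of 10 such targets tested 9 were lower in KO, 7 with an unadjusted p under 0.05, against 3.36% of all genes, at a median of -0.65 and with 0 called. Cardiomyocyte genes, described below, gave 5 of 10 lower at an unadjusted p under 0.05 (limma), at a median of -0.84. The part of heart muscle in the levels of these targets was not tested. Pdk4, which holds back glucose oxidation, was 9.95, 15 and 15.8 FPKM in WT and 4.23, 6.35 and 8.07 FPKM in KO. Like Fabp4, Pdk4 had all KO hearts below all WT hearts, and WT 2 was not its highest WT heart. Among 8 adipocyte progenitor and stromal genes 7 were lower and 0 were called, at a median of -0.17. The exception was Ly6a, the stem cell antigen Sca1, which endothelial cells also carry, with 93.7, 93.4 and 99.1 FPKM in WT and 121, 183 and 138 FPKM in KO (log2 fold change 0.60, adjusted p = 0.364, limma).

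Transcripts of other cell types also varied between the libraries. The 10 cardiomyocyte genes summed to 1120, 2080 and 1860 FPKM in WT and 841, 725 and 1430 FPKM in KO, highest of their group in the same 2 hearts as Adipoq. All 10 were lower in KO at a median of -0.84, 5 of them at an unadjusted p under 0.05 (limma), against 3.36% of all genes. Divided by the cardiomyocyte sum, 6 of the 10 members (Adipoq, Lep, Plin1, Cfd, Retn and Cidec) still had WT 2 as the highest WT and KO 3 as the highest KO heart, and Fabp4, Lipe, Pparg and Ucp1 did not. On that scale, in relative units, Fabp4 was 29.9, 17.8 and 14.6 in WT and 18.6, 29.4 and 17.0 in KO. Its groups then overlapped. Lipe was 2.1, 1.3 and 1.2 in WT and 1.77, 2.58 and 1.66 in KO, overlapping too. Capillary endothelial genes, relevant to Fabp4, summed to 235, 248 and 257 FPKM in WT and 205, 226 and 226 FPKM in KO. Of these 11 of 14 were lower, at a median of -0.14, 2 of them at an unadjusted p under 0.05, against the same 3.36%. Macrophage genes, relevant to Fabp4 and Pparg, summed to 4490, 2820 and 2160 FPKM in WT and 3750, 2980 and 2390 FPKM in KO, highest in WT 1 and KO 1 as Pparg was, with 3 of 12 lower. The part of cardiomyocyte, endothelial and macrophage content in the member levels was not tested.

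The highest skeletal muscle and lung sums of all 6 hearts did not lie in the hearts with high adipocyte transcripts. Within the KO hearts, though, the lung sum was highest in KO 3, at 2.01 FPKM against 0.604 FPKM in KO 1 and 0.85 FPKM in KO 2. KO 2, with the skeletal muscle transcripts, had 0.404 FPKM of summed Adipoq, Plin1 and Cidec, the lowest of all, and WT 3, with the lung transcripts, had 2.49 FPKM. Lymph node genes, chiefly Ccl21a, summed to 22.5 FPKM in KO 2 and 19.9 FPKM in WT 1, against 7.33 FPKM in WT 2 and 1.38 FPKM in KO 3. Mesothelium genes summed highest in KO 1, at 35.4 FPKM, where Adipoq was lowest. Atrial genes summed to 292, 417 and 273 FPKM in WT and 142, 230 and 329 FPKM in KO, highest of their group in WT 2 and KO 3 as Adipoq was. Nearly all of that sum was Nppa, which stressed ventricle also makes. The atrial markers Myl7 and Bmp10 were at 0 in WT 2 and at 0.377 and 0.0198 FPKM in KO 3, and Myl7 was highest in KO 1, at 0.537 FPKM. Myl4 and Sln were highest in KO 2, at 6.94 and 4.96 FPKM. They were at 0.523 and 0 FPKM in WT 2 and at 0.681 and 0.0675 FPKM in KO 3. The part of atrial tissue in the member levels was not tested. Neutrophil genes (4 of 8 lower, median 0.01) and atrial genes (1 of 2 lower) gave no gene called. Of the thymus list 1 gene was tested, the CD8 chain Cd8b1, lower in KO (log2 fold change -1.55, adjusted p = 0.0778, limma). The other genes of that list had too few fragments to be tested, so no statement on thymus tissue follows.

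**Figure D5:**
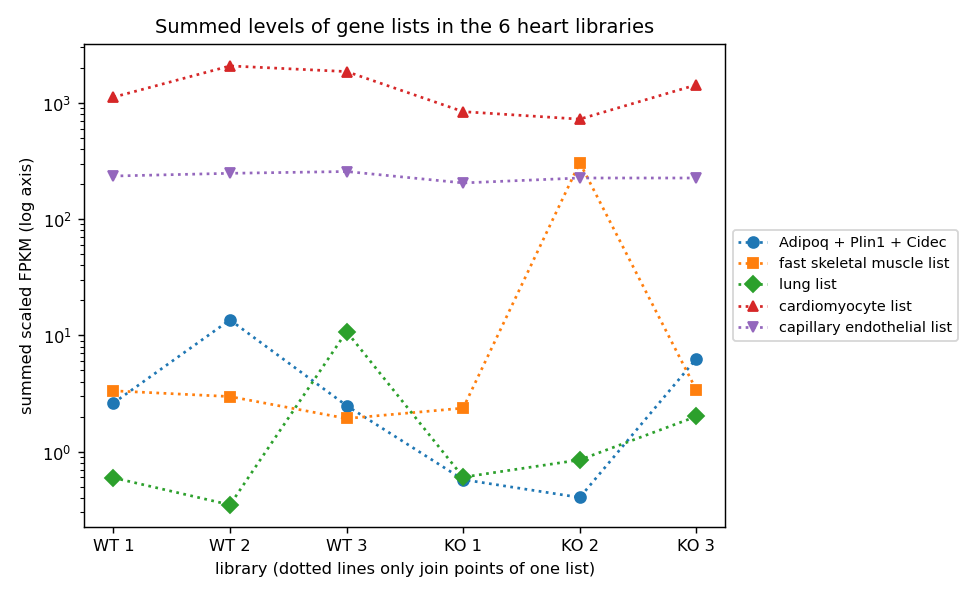
Summed level (scaled FPKM, log axis) in each of the 6 hearts for Adipoq, Plin1 and Cidec and for the skeletal muscle, lung, cardiomyocyte and capillary endothelial lists. Dotted lines join the points of a list and carry no order. The adipocyte sum peaks in WT 2 (13.6) and KO 3 (6.31), the skeletal muscle sum in KO 2 (306) and the lung sum in WT 3 (10.8).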

How the data were processed

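RNA from infarcted and peri-infarcted hearts of 3 WT and 3 KO mice was sequenced as paired ends. The authors trimmed reads with fastp, aligned them with HISAT2 2.0.5, counted fragments with featureCounts and deposited FPKM with gene lengths. The processing notes list mm10 beside a human build, and the coordinates in the table are those of GENCODE M21 on GRCm38. The authors tested genes with DESeq2, whose output was not used here. The strand setting is not given in the sources used here. The deposited FPKM times gene length gave whole fragments for 100% of nonzero values (within 0.01), and 0 columns belonged to other samples.

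FPKM were scaled by trimmed means of M values (factors 0.9895 to 1.0137). The 15520 genes that reached 10 fragments in 3 or more libraries, and 15 summed over all, were fitted with limma 3.58.1 in R 4.3.3 (lmFit, eBayes with trend and robust) on log2(FPKM + 0.1), on which fold changes of low genes are understated. A call needed an adjusted p of at most 0.05 and a log2 change of at least 0.5. Intervals of single levels are exact Poisson intervals and those of ratios exact binomial ones, at 95%. The genes named are the members, genes of the lists, the 10 most like the summed Adipoq, Plin1 and Cidec, the genes past the 2-fold margin (chosen after their values were seen) and Crlf2. Members and lists were chosen with earlier results of these data known. Each library is 1 mouse. Alternatives covered the scaling, filter, pseudocount, voom, a replicate block and leaving out each library.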

Additional observations from a re-analysis of the deposited data

How the results depend on the processing

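The number of genes called (2, of which 1 higher in KO) depended on the settings, and the cause was not tested. It was 6 with no filter, 1 with at least 10 fragments in every library and 3 with voom. Leaving out 1 library gave 1 to 14 genes, with 14 without KO replicate 1, 5 without WT replicate 3 and 1 without WT replicate 1, WT replicate 2 or KO replicate 3. With a replicate block it was 4. The numbers were not taken to pair mice, since same-numbered libraries deviated together with correlations of -0.016, 0.115 and 0.12. In alternatives chosen after seeing the data, it was 0 without both WT replicate 2 and KO replicate 3 (597 genes at an unadjusted p under 0.05, limma) and 1 with the log2 sum of Adipoq, Plin1 and Cidec as a covariate. No member was called under any alternative run.

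Among the log2 fold changes of single members, 2 changed sign under an alternative. Medians of some lists changed sign too, such as that of mesothelium genes, from 0.39 to -0.07 without KO replicate 1. Pparg went from -0.12 to 0.05 without WT replicate 1, within a range of -0.22 to 0.05 over the left-out libraries. Cfd went from -2.13 to 0.29 (SE 0.28) with the covariate, under which Fabp4 stood at -0.48. That covariate is built from the members Adipoq, Plin1 and Cidec, whose sum Cfd followed across the hearts (r = 0.99). Adjusting for it takes out the Cfd difference by construction, so this change of sign is no test of Cfd. With pseudocounts of 1 and 0.01 and with voom the log2 fold change was -0.92, -2.07 and -2.04 for Adipoq, -0.35, -2.01 and -2.14 for Plin1, -0.77, -2.23 and -2.25 for Cidec and -1.66, -2.21 and -2.2 for Cfd. Over all alternatives with limma or voom the adjusted p of Fabp4 was 0.262 or higher. For Lep, Retn and Ucp1 depth limits any statement on the groups.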
